A study of Sus scrofa with 2 samples.

Results

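The miRNAs described here are those used as markers of blood and immune cells, taken by name as every ssc- probe of the families miR-142, miR-144, miR-146, miR-150, miR-155, miR-223, miR-451 and miR-486. This rule found 7 of the 355 probes of a custom microarray, which covered 5 of the 8 families. They were ssc-miR-142-3p, ssc-miR-142-5p, ssc-miR-146a, ssc-miR-146b, ssc-miR-155, ssc-miR-451 and ssc-miR-486. The families miR-144, miR-150 and miR-223 were not analysed here. The tissue was the anterior pituitary of healthy female piglets aged 20 days, from Bama minipigs (YB), a small Chinese breed, and Landrace pigs (YC), a large European breed. Each breed was represented by 1 pool of 3 pigs on 1 array, and no treatment is named for either. According to the methods, the glands were briefly rinsed in PBS against carry-over of blood, and how much blood remained is not given in the sources used here. No pig was measured on its own, so no value below has a spread or an SD between animals. The study compared the breeds by Student's t test and lists p-values for some probes named below. It also describes repeat measurements of each miRNA by array. With 1 pool per breed, such a test cannot cover differences between pigs, and its p-values were not used here. All comparisons are therefore by size alone, and the number of arrays limits their precision.

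A miRNA is cut from a hairpin precursor, and usually one of the hairpin's 2 arms, the guide strand, is kept and represses mRNAs that pair with its seed, bases 2 to 8. miR-451 and its genomic neighbour miR-144 are made in maturing red cells, and miR-451 is unusual in being processed by Argonaute 2 without Dicer. miR-486 is abundant in red cells and is also made in striated muscle. miR-142 is found in nearly all cells of the blood lineage, while miR-146 and miR-155 are induced in activated white cells, where miR-146 damps inflammatory signalling and miR-155 promotes it. RNA came from the whole lobe, so fewer cells of a type and less RNA per cell cannot be told apart in these signals.

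The members fell into a bright part and a dim part in both breeds. Both members with a red cell role, ssc-miR-451 and ssc-miR-486, gave a signal above 100 on each array. The 5 members of the white cell families stayed at 25.5 or below on each array. From general knowledge of these genes, 2 of these 5 probes, ssc-miR-146a and ssc-miR-155, do not read the strand studied in white cells (below). The value of 100, the upper limit of the lowest signal class the study describes, was used as a floor under which no ratio between the breeds was read. It is not a detection call, since the deposited values include no background measurement. Of all 355 probes, 169 reached this floor on both arrays and 170 lay under it on both. Probes differ in how strongly they bind their target, so a position on the array describes brightness and not a number of molecules.

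**Figure D1:**
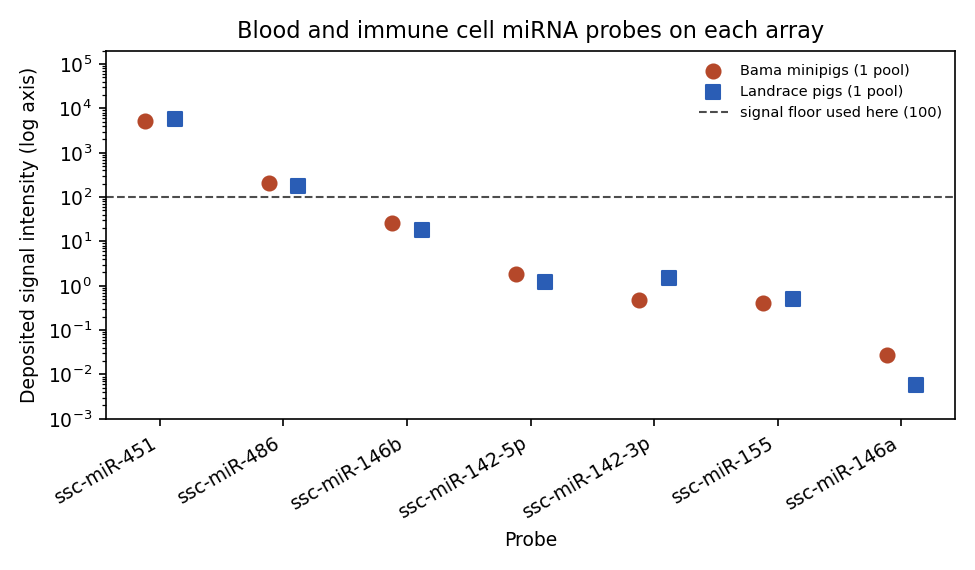
Signal intensity (log axis) of the 7 blood and immune cell miRNA probes in the pool of Bama minipigs (circles) and the pool of Landrace pigs (squares), 1 array each, with the floor of 100 as a dashed line. Only ssc-miR-451 and ssc-miR-486 lie above the floor, and the other 5 lie at 25.5 or below.

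The signal of ssc-miR-451 was 5286 in Bama minipigs versus 5841 in Landrace pigs. It was brighter than 305 of the 355 probes on the Bama minipig array and brighter than 319 on the Landrace array, above the 75th percentiles of 1519 and 1334. The Bama minipig signal was 90.5% of the Landrace signal, a log2 ratio of -0.14. Among the 85 probes with an average signal above 1000 and up to 10000, the log2 ratio had a median size of 0.29 with its sign ignored, and in 58 of the 85 it was larger in size than for ssc-miR-451. This ranking was made on the deposited signals only, and whether the difference exceeds the spread between pigs could not be tested. Under the 5 scalings tried, the log2 ratio ran from -0.33 to -0.20. In 3 of them every log2 ratio is lowered by the same amount, so a ratio below 0 could not turn there; quantile normalization gave -0.25 and cyclic loess -0.20.

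The signal of ssc-miR-486 was 208 in Bama minipigs versus 182 in Landrace pigs. It was brighter than 203 and 200 of the 355 probes, close to the middle of the arrays (medians 114 and 95.1). The log2 ratio was 0.19, opposite in sign to that of ssc-miR-451, and it ran from 0.0050 to 0.27 under the 5 scalings. Of the 77 probes with an average signal above 100 and up to 1000, 57 had a log2 ratio of larger size in the deposited signals, and the median size over the 77 was 0.45. This class was set by the average signal alone. It therefore also holds probes under the floor in Landrace pigs, among them ssc-miR-1 (426 in Bama minipigs versus 25.1 in Landrace pigs). Their ratios, not read elsewhere here, enter both the 57 and the median. The log2 ratios of the 2 red cell miRNAs lay 0.34 apart, by construction also in the 3 scalings that lower all ratios alike, 0.32 apart after quantile normalization and 0.48 after cyclic loess, and no replicate array is there to judge this gap against. With a floor of 200, ssc-miR-486 would be left out, because its Landrace signal lies below that value.

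Between the breeds, neither of the 2 members at or above the floor on both arrays differed by 2-fold or more, the size limit of the study's methods. Over all probes at or above the floor on both arrays, 21 of 169 (12.4%) did, 17 higher and 4 lower in Bama minipigs, or 16 higher and 8 lower after scaling to the 75th percentile over all probes. At that share, 0 of 2 is not a result about these miRNAs. Without a floor, 123 of 355 probes (34.6%) had signals at least 2-fold apart, 69 higher and 54 lower in Bama minipigs, among them ssc-miR-142-3p and ssc-miR-146a, but both members lay under 2 signal units on both arrays and no direction is read from them.

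**Figure D2:**
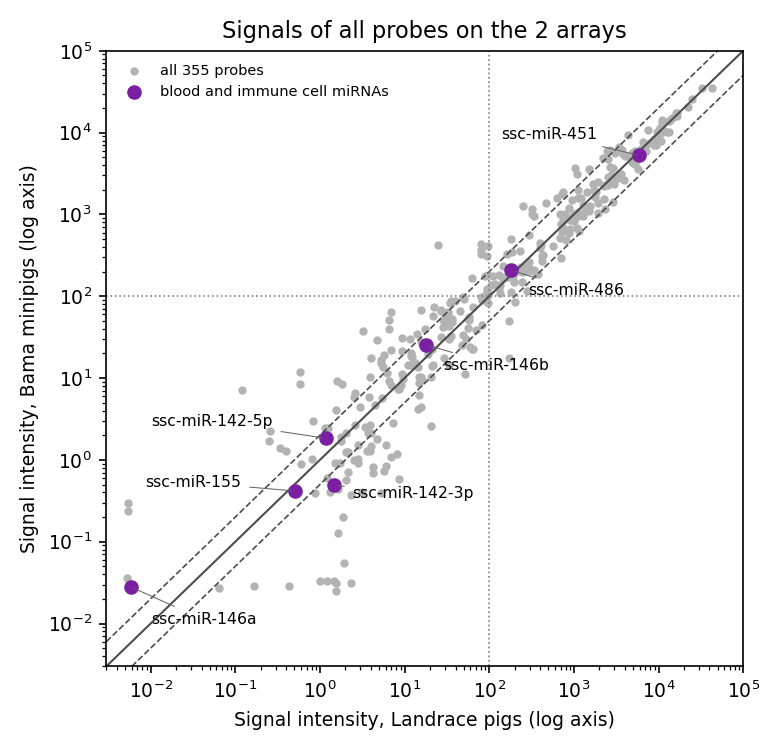
Signal intensity of all 355 probes in Bama minipigs against Landrace pigs (both log axes), with the 7 members in purple, equal signals as a solid line, 2-fold differences as dashed lines and the floor of 100 as dotted lines. ssc-miR-451 and ssc-miR-486 lie between the 2-fold lines above the floor, and the other 5 members lie under the floor on both axes.

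Among the 5 probes of the white cell families, ssc-miR-146b was the brightest. Its signal was 25.5 in Bama minipigs versus 18.1 in Landrace pigs, above 123 and 120 of the 355 probes. The 2 strands of miR-142 were far dimmer. ssc-miR-142-5p had 1.84 in Bama minipigs versus 1.19 in Landrace pigs, and ssc-miR-142-3p had 0.489 and 1.46. The 2 strands come from 1 hairpin and so are not independent, and each differed between the arrays by less than 1 signal unit. The signal of ssc-miR-155 was 0.417 in Bama minipigs versus 0.513 in Landrace pigs.

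The dimmest member was ssc-miR-146a, with 0.0281 in Bama minipigs versus 0.00582 in Landrace pigs. Only 2 and 4 probes, respectively, were lower. The lowest deposited values were bunched on each array. On the Bama minipig array, 12 probes lay between 0.0247 and 0.0357 and the next at 0.0551, and on the Landrace array 5 probes lay between 0.00531 and 0.00582 and the next at 0.0650. ssc-miR-146a belonged to both bunches, together with ssc-miR-194-3p and ssc-miR-450a. How signals below background were kept above 0 is not given in the sources used here, so these values mark the bottom of each array and carry no fold between the breeds.

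A low signal has to be read for the listed strand only, and which hairpin arm that is was not checked against a precursor here. The sequences below are those that the study lists for these probes. They are given from the 5′ end, with the seed, bases 2 to 8, in capitals.
ssc-miR-451: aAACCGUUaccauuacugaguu
ssc-miR-486: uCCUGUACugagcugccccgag
ssc-miR-142-5p: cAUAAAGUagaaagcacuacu
ssc-miR-142-3p: uGUAGUGUuuccuacuuuaugg
ssc-miR-146a: cCUGUGAAguuuaguucuucag
ssc-miR-146b: uGAGAACUgaauuccauaggc
ssc-miR-155: uCCUACAUguuagcauuaaca

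The guide strands of miR-146a and miR-146b are near copies of each other in mammals and share a seed. On this array the 2 did not. Their seeds were CUGUGAA and GAGAACU, and 12 single-base edits separated the 2 sequences. Instead, ssc-miR-146a was more complementary to ssc-miR-146b than to any other probe, with 14 bases able to pair over an ungapped overlap of 20. The 2 arms of miR-142, compared in the same way, paired at 18 of 21 bases. Such a count is a description, since ssc-miR-451 and the unrelated ssc-miR-224 reached 15 of 22. From general knowledge of these genes, the sequence listed for ssc-miR-146a is that of the passenger arm, and the same holds for ssc-miR-155. For both, the guide strand that is studied in white cells was not analysed here. Of the 5 dim members, ssc-miR-142-5p, ssc-miR-142-3p and ssc-miR-146b carry strands by which these miRNAs are usually known. How far the strand accounts for the dim signals was not tested.

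None of the 7 seeds was shared with another of the 355 probes, although 97 probes shared theirs with at least 1 other. The nearest other probe to any member was 8 or 9 edits away, where the median over all probes was 8. The share of G and C was 63.6% in ssc-miR-486, higher than in 303 of the 355 probes, and 33.3% to 42.9% in the other 6, against a median of 50% over all probes. In the RefSeq annotation of the pig, used for names and for which genes overlap or lie within 10 kb, all 7 members matched 6 genes. MIR451 lies beside MIR144 and overlaps the span of ERAL1, which encodes a mitochondrial ribosome assembly factor. MIR486-1 overlaps ANK1, the gene of the red cell membrane protein ankyrin. No other annotated gene overlapped the remaining 4.

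The probes closest to ssc-miR-451 in signal on both arrays were ssc-miR-128 (5384 in Bama minipigs versus 5602 in Landrace pigs), ssc-miR-15b (5567 and 5752) and ssc-miR-145 (5602 and 6266), at distances of 0.066, 0.078 and 0.13 on the log2 scale. Those closest to ssc-miR-486 were Y-55, ssc-miR-499-5p and ssc-miR-676-3p, at 0.24, 0.26 and 0.29. This likeness rests on 2 arrays and describes brightness only.

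Other miRNAs that are abundant in red cells but are made in many tissues gave signals well above the floor. Of 6 that were listed, 4 had a probe here and none of the 4 reached 2-fold, which beside the 12.4% of all probes at or above the floor is not a result about them. ssc-miR-16 had 8568 in Bama minipigs versus 9377 in Landrace pigs, ssc-miR-92a 7033 and 6911, ssc-miR-22-3p 2631 and 3942, and ssc-miR-363 949 and 1128. Their median log2 ratio in the deposited signals was -0.19, against -0.023 over the 169 probes at or above the floor. It was -0.14 after cyclic loess, against 0.0028 over the 169 probes at or above the floor after that scaling. After quantile normalization it was -0.27, against -0.072 over 173 such probes, a set unlike the 169 of the deposited signals. The lowest was that of ssc-miR-22-3p, at -0.58, and the highest that of ssc-miR-92a, at 0.025, a value so near 0 that its sign depends on the scaling.

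Of 7 miRNAs with roles in lymphoid or myeloid cells that are also widely expressed, all 7 lay above the floor and 0 reached 2-fold, beside 12.4% of all probes at or above the floor, so this count is not a result about them either. Their median log2 ratio, that of ssc-miR-181b, was -0.023 in the deposited signals, where the same probe is also the median of the 169. The median of the 7 was -0.11 after cyclic loess, against 0.0028 over the probes at or above the floor after that scaling. It was -0.21 after quantile normalization, against -0.072 over the 173 probes at or above the floor after that scaling. The highest was ssc-miR-221, a miRNA that restrains erythroid growth through the KIT receptor, with 5432 in Bama minipigs versus 3810 in Landrace pigs (log2 ratio 0.51). In the deposited signals the lowest was ssc-miR-21, with 10048 and 12524 (log2 ratio -0.32). After quantile normalization another of the 7 was lowest, at -0.49, with ssc-miR-21 at -0.37.

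Markers of other cells were set beside the red cell signals. The vessel miRNA ssc-miR-126, made in endothelium, had 6981 in Bama minipigs versus 8857 in Landrace pigs (log2 ratio -0.34), and ssc-miR-126*, from the other arm of its hairpin, had 207 and 341 (log2 ratio -0.72). Both were lower in Bama minipigs, as was ssc-miR-451, and their part in its difference was not tested. Of the 4 striated muscle miRNAs that were listed, which bear on ssc-miR-486, ssc-miR-1 had 426 in Bama minipigs versus 25.1 in Landrace pigs. Both ssc-miR-133b and ssc-miR-133a-3p also lay above the floor in Bama minipigs only. ssc-miR-206 went the other way, with 117 and 278. The summed signal of these 4 was 1352 in Bama minipigs versus 463 in Landrace pigs, but it adds unlike probes, 3 of them under the floor in Landrace pigs, and no ratio is read from it. Their part in the signal of ssc-miR-486 was not tested. Of the brain and posterior lobe markers, ssc-miR-9-1 and ssc-miR-124a lay under the floor on both arrays. The remaining one, ssc-miR-128, lay far above it, with 5384 in Bama minipigs versus 5602 in Landrace pigs (log2 ratio -0.057).

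As miRNAs of endocrine and epithelial pituitary cells, 5 probes were listed. They were ssc-miR-7 and 4 of the probes that the study added itself, Y-75 (listed there as miR-141), Y-76 (miR-200a), Y-77 (miR-200c) and Y-90 (miR-375). All 5 lay above the floor on both arrays, led by ssc-miR-7 with 35031 in Bama minipigs versus 42831 in Landrace pigs. So did 169 of all 355 probes and the whole lymphoid or myeloid list, so passing the floor does not check the labelled tissue.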

How the data were processed

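Small RNA from 1 pool of 3 anterior pituitaries per breed was tailed, tagged and stained with Cy5 on a custom μParaflo array. The authors subtracted the background, applied a LOWESS filter and deposited 1 signal intensity per probe and array on a linear scale. This treatment, made before deposit, sets both the ratios and the lowest values. All columns were used. Ratios are Bama minipigs over Landrace pigs, with no further scaling and no pseudocount. A floor of 100 and a limit of 2-fold were applied. With 1 array per breed no p-value was computed.

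The 7 members are all named. Other probes are named as the 3 nearest in log2 signal to a red cell member, as the highest and lowest of fixed lists, or to give a list's values. The bunches of lowest values and the comparison with ssc-miR-224 were chosen after the values were seen. Members, lists and floor were chosen with earlier results of these data known.

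Alternatives were scaling to equal medians or 75th percentiles, quantile normalization, cyclic loess with 3 iterations (limma 3.58.1, R 4.3.3), an offset of 50 and other floors. The scalings were tested on simulated data. Sequences were read from the study's probe list, which held all 355 probes, and compared by edit distance and by ungapped Watson-Crick pairing. Gene names and neighbouring genes came from RefSeq for assembly Sscrofa11.1. Python 3.11.15, numpy 2.4.6, pandas 2.3.3 and matplotlib 3.10.9 were used.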

Additional observations from a re-analysis of the deposited data

How the results depend on the processing

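With 1 array per breed, a log2 ratio was taken as unchanged when it moved by less than 0.1, and a count when it stayed within a factor of 1.5. The log2 ratio of ssc-miR-451, -0.14, was -0.26 after scaling to equal medians over probes at 100 or more on both arrays, -0.26 after scaling to the 75th percentile over the same probes, -0.33 after scaling to the 75th percentile over all probes and -0.25 after quantile normalization. That of ssc-miR-486, 0.19, was 0.080, 0.073, 0.0050 and 0.067 in the same order. Cyclic loess and an offset of 50 left both within 0.1. The first 3 of these scalings lowered every log2 ratio by 0.11, 0.12 and 0.19, which by construction accounts for their effect. The number of members at or above the floor on both arrays fell from 2 to 1 with a floor of 200 and was 2 with a floor of 50 and under each scaling. Past 2-fold there were 0 members in each alternative except without a floor, with 2, both under 2 signal units on both arrays. Over all probes that count was 21, between 18 and 28 in the other alternatives, and 123 without a floor. Its share of higher probes, 81.0%, was 69.6% after median scaling, 66.7% after scaling to the 75th percentile over all probes, 88.9% with the offset and 56.1% without a floor. Signals near the bottom of the arrays give no ratio, and no pool was repeated.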
